A study of Sorghum bicolor with 24 samples.

Results

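Sorghum (Sorghum bicolor) roots from a phosphorus deficiency experiment were compared between day 7 and day 4 by RNA-seq, and the question was for which genes the response to the treatment differed between the days. The comparison was the treatment-by-time interaction, the log2 ratio of libraries labelled phosphorus deficiency over mock libraries at day 7 minus the same log2 ratio at day 4. All 12 libraries of the phosphorus experiment entered it, of 24 in the series, and every gene that passed a filter on low counts was tested. The groups were MOCK_4d, phosphorus deficiency_4d, MOCK_7d and phosphorus deficiency_7d, with 3 libraries each, all of total RNA from roots. A positive interaction means that the ratio of labelled P deficiency over mock was higher at day 7, and a negative one that it was lower. The cultivar, the phosphate supply of each medium, plant age and the hour of harvest were not given in the sources used here, nor was it stated whether the replicates of a group were separate plants, so p-values measure the spread between these libraries, which may be technical.

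Plants that run short of phosphate raise phosphate transporters, acid phosphatases and lipid remodelling enzymes through PHR transcription factors, while SPX proteins hold those factors back when phosphate is plentiful. The state of phosphate in roots is also tied to that of iron, because phosphate binds iron in the medium and in the cell wall. Grasses take up iron both as ferrous ions, through IRT and Nramp transporters, and bound to phytosiderophores that the root secretes.

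The phosphate genes ran against the labels. SPX domain-containing protein 3 (Sobic.001G259100), a marker of phosphate starvation in rice, stood at 527, 580.2 and 611 CPM (counts scaled by the library total times its TMM factor) in the day 4 mock libraries and at 0.575, 0.7502 and 0.791 CPM in those labelled P deficiency. By day 7 it stood at 708, 633 and 558 CPM in mock and 0.986, 0.871 and 0.536 CPM in labelled P deficiency. Over 97 genes of 4 lists (SPX proteins, phosphate transporters, purple acid phosphatases, membrane lipid enzymes), the mean log2(CPM + 1) reached no more than 3.66 in any library labelled P deficiency, while no mock library fell under 5.67. Starvation genes are usually high in starved roots, so these levels are the opposite of what the labels say, at both days. All directions below follow the deposited labels. If the 2 labels were exchanged, every treatment and interaction value would change sign while its size and p would stay.

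Total counts ran from 32631226 to 45292506 per library, and 25137 of 35907 listed genes were tested. Correlations of log2 CPM between replicates were 0.968 to 0.984, and the lowest were those of MOCK_7d replicate 1 with the other two. Root markers were present: the 13 root hair genes summed to 1038 to 1253 CPM in mock libraries and 574.6 to 749.9 CPM in those labelled P deficiency, without overlap, and the 4 Casparian strip genes to 72.0 to 155 and 54.4 to 95.2 CPM. The 88 laccase and secondary wall genes summed to 20550 to 27090 CPM in mock and 7789 to 13570 CPM in labelled P deficiency. The 38 photosynthesis genes summed to 62.5 to 90.2 CPM in mock libraries and to 157 to 186 CPM in those labelled P deficiency, and the part of these 4 lists in the results was not tested. In bulk roots, fewer cells of a type and less RNA per cell cannot be told apart.

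Few genes differed in their response between the days, and most of the 117 that did rose or fell under labelled P deficiency from day 4 to day 7. These 117 passed the interaction test (0.465% of the genes tested; edgeR quasi-likelihood, Benjamini-Hochberg adjusted p under 0.05). Of these, 67 had a positive interaction (0.267%) and 50 a negative one (0.199%). At an unadjusted p under 0.05 there were 2091 genes (8.32%). For comparison, 9713 genes (38.6%) differed between labelled P deficiency and mock at day 4 and 8958 (35.6%) at day 7. Among the 11746 genes called at either day, 117 (0.996%) also passed the interaction. The median interaction over all genes tested was -0.05 on the log2 scale. Among the called genes its absolute size ran from 0.69 to 9.41, with a median standard error of 0.290. A gene that did not pass is not shown to respond alike at both days.

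**Figure D1:**
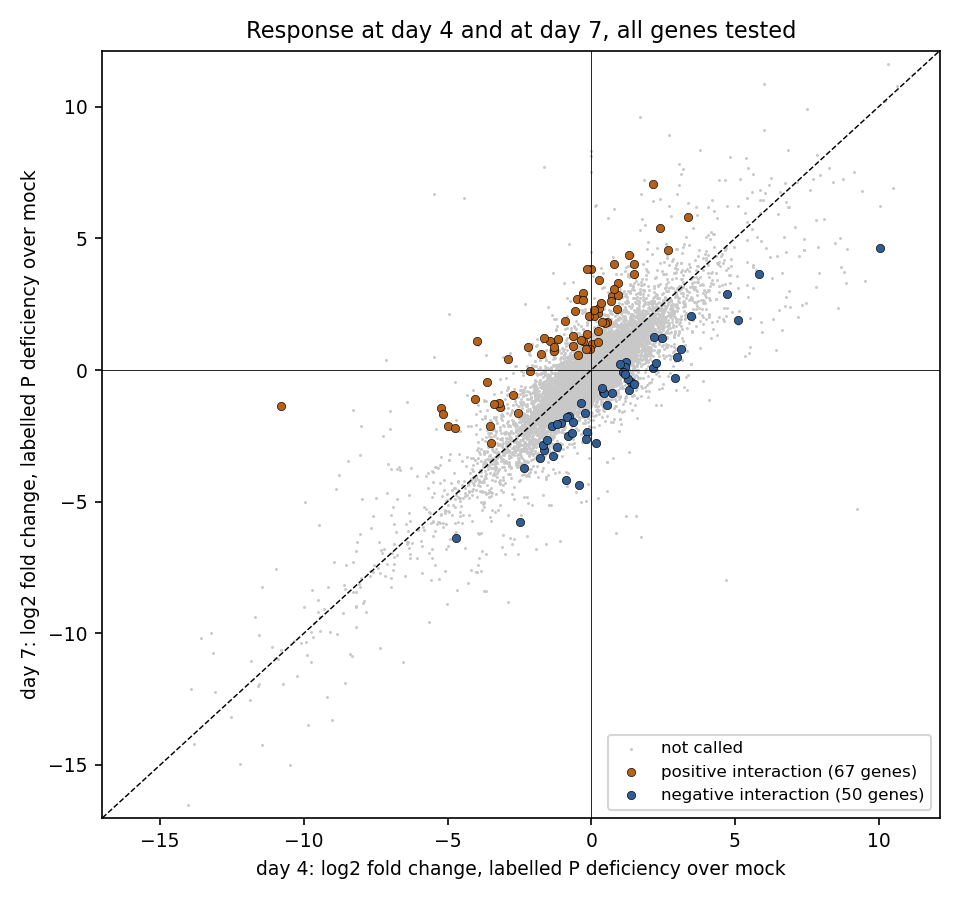
Log2 fold change of labelled P deficiency over mock at day 4 (x axis) and day 7 (y axis) for each of the 25137 genes tested. Grey points did not pass the interaction test, orange and blue points are the 67 positive and 50 negative calls, and the dashed line marks equal responses. Most points lie along the dashed line.

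A call at one day and not at the other seldom came with an interaction. Of 2788 genes called at day 4 and not at day 7, 16 passed the interaction, and of 2033 called at day 7 and not at day 4, 29 did. Of 6902 genes called at both days with the same sign, 56 passed, 34 with a larger response at day 7 and 22 with a smaller one. Only 23 genes were called at both days with opposite signs, and 16 of these passed. With each class split by the sign of the interaction, the largest group was positive and called at day 7 only, with 23 genes.

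**Figure D2:**
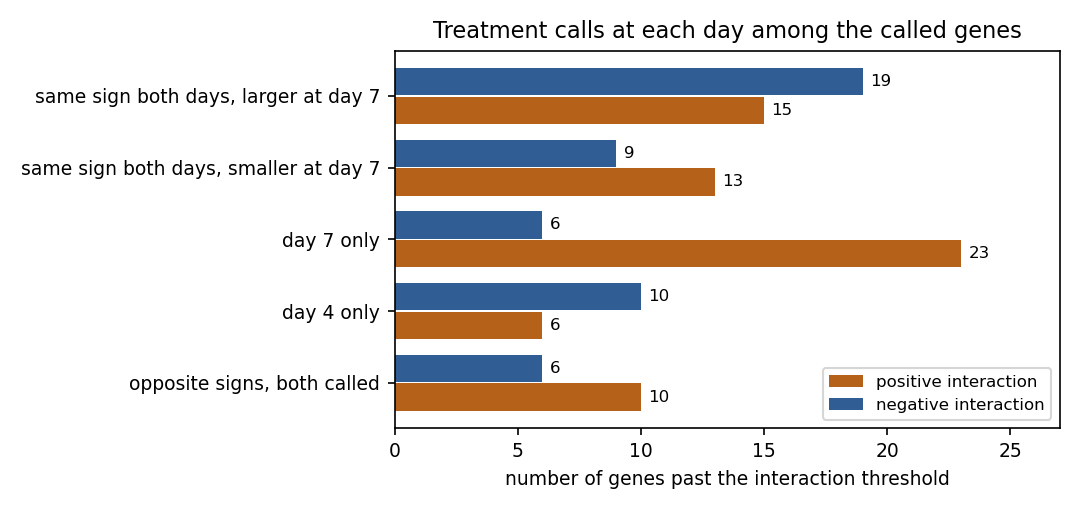
Number of genes past the interaction threshold (x axis) by the treatment calls at each day (y axis), with positive interactions in orange and negative ones in blue. Positive genes called at day 7 only (23) and negative genes with a larger fall at day 7 (19) were the longest bars.

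Most called genes moved with time in one arm. In the libraries labelled P deficiency 1103 genes (4.39%) differed between the days, with 2.18% of genes higher and 2.21% lower at day 7. In mock libraries 338 did (1.34%), with 0.847% higher and 0.497% lower. Of the 117 interaction genes, 70 differed between days under labelled P deficiency and not in mock, 22 in mock and not under labelled P deficiency, 22 in both and 3 in neither. Leaving out 1 library at a time gave 58 called genes (without MOCK_7d replicate 2) to 180 (without MOCK_7d replicate 1). Of the 117 genes, 51 were called in all 12 of these fits and 53 in fewer than 6. No gene changed sign in any of them. A called gene described in the following paragraphs was called in all 12 fits unless a number of fits or a lost call is given.

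Iron genes held some of the largest interactions. The regulator BRUTUS, oligopeptide transporter 3, Fe(2+) transport protein 2 and Nramp2 rose under labelled P deficiency between the days, and 2 genes for vacuolar iron import fell. Of 80 tested genes of iron uptake, chelation and storage, 7 passed the interaction (8.75%, against 0.465% of all genes), 5 positive and 2 negative, and the list's median was -0.10 against -0.05 over all genes. BRUTUS and oligopeptide transporter 3 are outside that list, as is IRON-RELATED TRANSCRIPTION FACTOR 3.

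Zinc finger protein BRUTUS (Sobic.009G222200), a ubiquitin ligase that in Arabidopsis restrains the iron deficiency response, had the smallest interaction p of all genes. It stood at 39.5, 51.2 and 38.9 CPM in mock and 37.6, 36.3 and 32.7 CPM in labelled P deficiency at day 4. On day 7 it stood at 38.2, 35.9 and 37.7 CPM in mock and 311, 249 and 289 CPM in labelled P deficiency. The 3 libraries labelled P deficiency at day 7 lay far above the other 9, which ran from 32.7 to 51.2 CPM. The interaction was 3.21 ± 0.18 (SE; adjusted p = 5.96e-06), and from day 4 to day 7 BRUTUS rose 7.97-fold under labelled P deficiency.

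Oligopeptide transporter 3 (Sobic.001G087700), which in Arabidopsis loads iron into the phloem, changed the sign of its response. At day 4 it read 106, 136 and 88.5 CPM in mock and 82.2, 72.3 and 71.8 CPM in labelled P deficiency, lower without overlap. By day 7 the values were 159.8, 148 and 140.1 CPM in mock and 743, 687 and 672 CPM in labelled P deficiency, with no overlap. The interaction was 2.78 ± 0.21 (SE; adjusted p = 7.28e-05).

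Fe(2+) transport protein 2 (Sobic.001G156800), of the IRT family of ferrous iron importers, was low in 9 libraries. Its day 4 values were 15.5, 15.1 and 12.5 CPM in mock and 11.1, 12.98 and 6.15 CPM in labelled P deficiency. Its day 7 values were 15.5, 19.2 and 26.97 CPM in mock and 134, 113 and 148 CPM in labelled P deficiency. The 3 late libraries labelled P deficiency stood apart, with an interaction of 3.197 ± 0.36 (SE; adjusted p = 0.00187).

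Metal transporter Nramp2 (Sobic.001G462500) also rose late. It stood at 64.9, 52.9 and 54.3 CPM in mock and 104, 109 and 63.6 CPM in labelled P deficiency at day 4. Day 7 libraries stood at 54.3, 45.2 and 71.6 CPM in mock and 342, 301 and 397 CPM in labelled P deficiency. The groups did not overlap at day 7 and did at day 4, and the interaction was 1.92 ± 0.30 (SE; adjusted p = 0.0122).

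Fe(2+) transport protein 1 (Sobic.001G142800) differed by its mock libraries. In mock it fell from 79.8, 58.4 and 67.3 CPM at day 4 to 12.4, 10.3 and 16.2 CPM at day 7. Under labelled P deficiency it read 197, 207 and 179 CPM at day 4 and 190.2, 171 and 128 CPM at day 7, 2 groups that overlapped. The interaction of 2.15 ± 0.26 (SE; adjusted p = 0.00285) thus came with a time difference in mock (log2 -2.40 ± 0.19 SE, edgeR adjusted p = 0.000107) and none called under labelled P deficiency (log2 -0.25 ± 0.18 SE, edgeR adjusted p = 0.57).

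Calls were less stable for 3 further positive genes. IRON-RELATED TRANSCRIPTION FACTOR 3 (Sobic.001G355600), a repressor of the iron deficiency response in rice, had an interaction of 1.46 ± 0.25 (SE; adjusted p = 0.0256). It was called in 6 of 12 fits and lost without MOCK_4d replicate 1 or 2, MOCK_7d replicate 2, phosphorus deficiency_4d replicate 2 or phosphorus deficiency_7d replicate 1 or 2, with values of log2 1.34 to 1.71. Metal transporter Nramp1 (Sobic.002G095600) had an interaction of 2.20 ± 0.41 (SE; adjusted p = 0.0363), and was called only in the 2 of 12 fits without MOCK_4d replicate 3 or MOCK_7d replicate 1 (log2 1.90 to 2.53). Zinc transporter 1 (Sobic.003G443700) had an interaction of 2.28 ± 0.45 (SE; adjusted p = 0.047), and was called only in the 3 of 12 fits without MOCK_4d replicate 2, MOCK_7d replicate 3 or phosphorus deficiency_7d replicate 3 (log2 2.05 to 2.58). Nramp2 and these 3 genes were chosen after their values were seen.

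In the other direction, Vacuolar iron transporter 2 (Sobic.002G194600), which moves iron into the vacuole, was high in the early libraries labelled P deficiency only. There it stood at 119, 175 and 163 CPM, against 21.4, 16.1 and 23.01 CPM in day 4 mock. At day 7 it read 11.8, 24.6 and 23.5 CPM in mock and 18.2, 13.8 and 16.8 CPM in labelled P deficiency, which overlapped. The interaction was -3.21 ± 0.36 (SE; adjusted p = 0.00187).

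Vacuolar iron transporter homolog 5 (Sobic.006G276300), of the same family of transporters, took the same form. It read 7.39, 11.4 and 10.2 CPM in mock and 43.6, 47.1 and 46.3 CPM in labelled P deficiency at day 4, and 8.65, 12.4 and 7.45 and 12.1, 9.64 and 12.7 CPM at day 7. The interaction was -1.97 ± 0.28 (SE; adjusted p = 0.00707). Vacuolar iron transporter homolog 1 (Sobic.006G161800), chosen after its values were seen, had an interaction of -1.49 ± 0.37 (SE; adjusted p = 0.144) and did not pass. Its day 4 values were 29.3, 31.1 and 26.9 CPM in labelled P deficiency and 7.697, 12.3 and 11.5 CPM in mock.

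Nicotianamine synthase 2 and a yellow stripe 1 transporter, of the phytosiderophore route, did not pass the interaction by edgeR. Nicotianamine synthase 2 (Sobic.001G395900), which makes their precursor, was higher in labelled P deficiency at both days, with log2 fold changes of 1.497 ± 0.32 (SE; adjusted p = 0.0026) and 1.23 ± 0.32 (SE; adjusted p = 0.0086), and its interaction was -0.26 ± 0.44 (SE; adjusted p = 0.954). The yellow stripe 1 transporter (Sobic.004G299600), which imports iron bound to them, had an interaction of -0.01 ± 0.36 (SE; adjusted p = 1.00). A second Fe(2+) transport protein 2 (Sobic.001G142900) read 357, 239 and 149 CPM at day 4 and 1066, 866 and 932 CPM at day 7 under labelled P deficiency. In mock it read 47.4, 32.3 and 16.8 CPM and then 102, 61.6 and 90.9 CPM, and the interaction was 0.54 ± 0.49 (SE; adjusted p = 0.874). Ferritin-1 (Sobic.008G004800), the iron store of plastids, had an interaction of -1.08 ± 0.24 (SE; adjusted p = 0.0895). These 4 genes too were chosen after their values were seen.

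**Figure D3:**
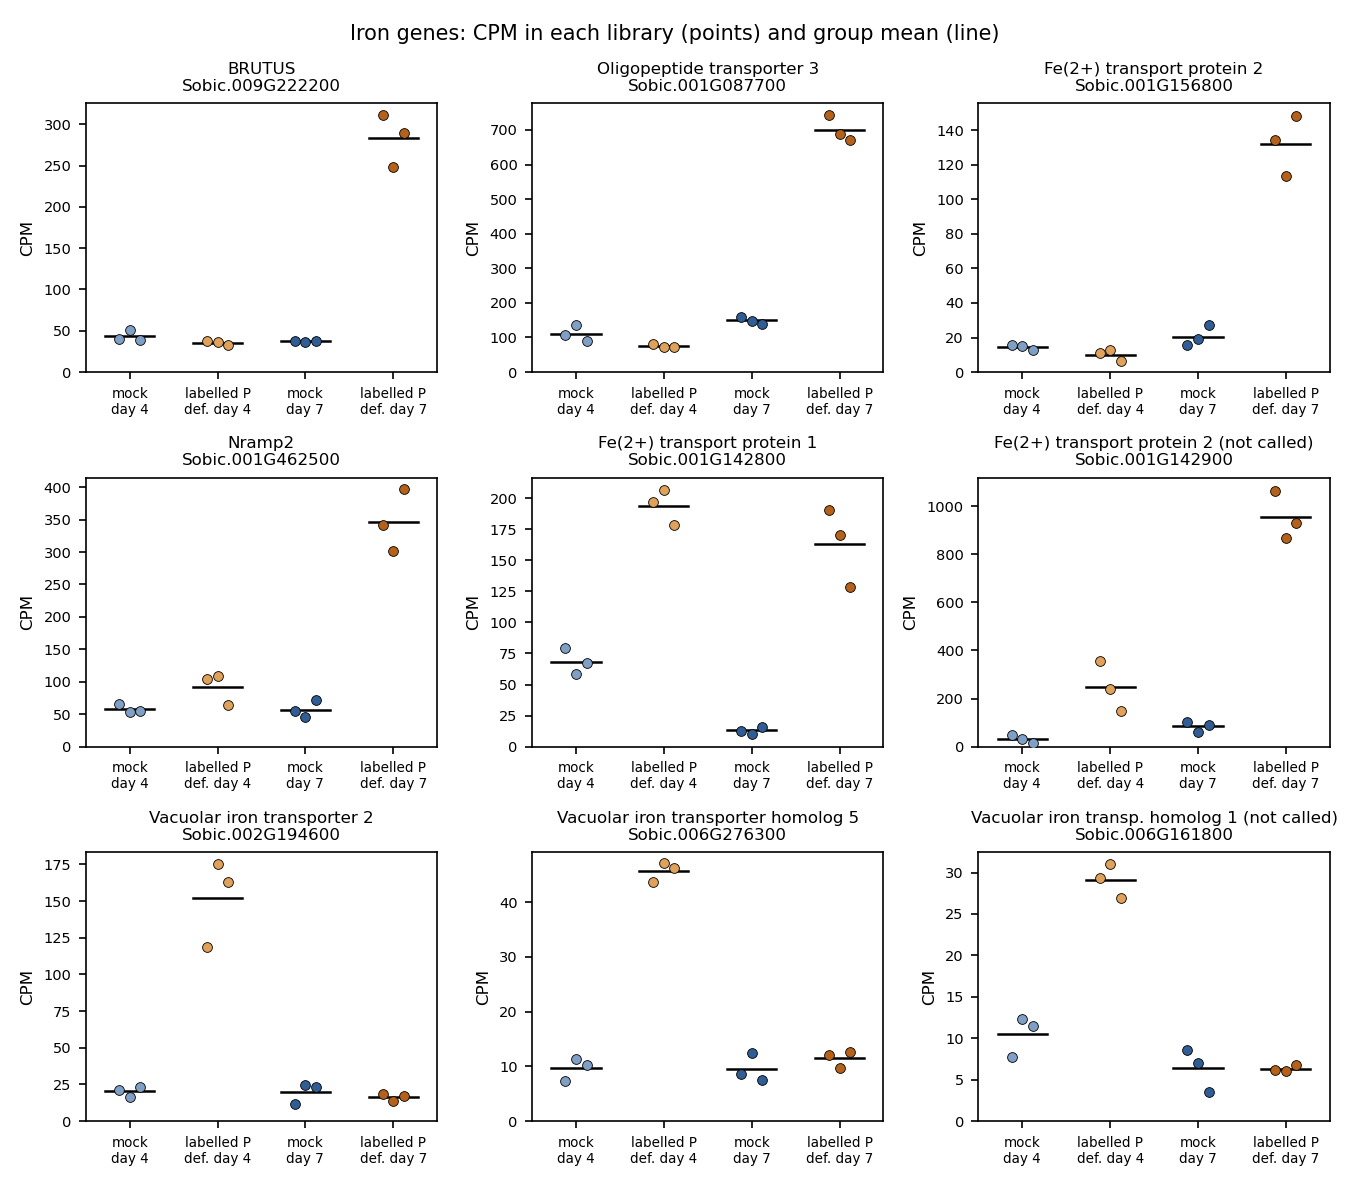
CPM (y axis, linear from 0, one scale per gene) of 9 iron genes in each library, by group (x axis); points are libraries and lines are group means of 3. In BRUTUS, oligopeptide transporter 3, Fe(2+) transport protein 2 and Nramp2 the late libraries labelled P deficiency stand above the other groups, and in the vacuolar iron transporters the early ones do.

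Genes of other kinds also responded more strongly at day 7. Peroxidase 1 (Sobic.002G003500), of the secreted class III peroxidases that act on the cell wall, read 4.32, 1.68 and 3.36 CPM in mock and 10.03, 11.98 and 19.7 CPM in labelled P deficiency at day 4. By day 7 it read 0.122, 0.2902 and 0.554 CPM in mock and 53.4, 47.4 and 23.4 CPM in labelled P deficiency. Mock fell and labelled P deficiency rose, both past the threshold, and the interaction was 4.90 ± 0.67 (SE; adjusted p = 0.00582). Peroxidase 4 (Sobic.006G243600) had an interaction of 2.09 ± 0.28 (SE; adjusted p = 0.00582), with 4.72, 3.66 and 4.06 CPM in mock and 29.3, 26.3 and 31.98 CPM in labelled P deficiency at day 7. These were the 2 edgeR calls among 125 class III peroxidases tested (1.60%, against 0.465% of all genes), with a list median of 0.07.

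Auxin-responsive protein IAA7 (Sobic.004G099600), a repressor of auxin response, stood at 5.98, 6.53 and 3.93 CPM in mock and 9.64, 10.7 and 11.1 CPM in labelled P deficiency at day 4. On day 7 it stood at 2.64, 4.26 and 3.69 CPM and 41.5, 29.98 and 32.6 CPM. Its interaction was 2.36 ± 0.31 (SE; adjusted p = 0.00512), the only edgeR call among 137 auxin genes (0.73%, near the 0.465% of all genes). NAC domain-containing protein 2 (Sobic.001G040200), a transcription factor, had an interaction of 1.26 ± 0.16 (SE; adjusted p = 0.00407). It was the only edgeR call among 69 NAC genes (1.45%, against 0.465% of all genes). Protein DETOXIFICATION 49 (Sobic.001G320900), of the MATE exporters, had an interaction of 2.93 ± 0.46 (SE; adjusted p = 0.0125), with 11.1, 8.01 and 5.54 CPM under labelled P deficiency at day 7. Protein NRT1/PTR FAMILY 5.10 (Sobic.003G371100) rose from 3.18, 2.41 and 1.12 CPM to 63.6, 39.9 and 69.7 CPM under labelled P deficiency. Its interaction of 2.54 ± 0.47 (SE; adjusted p = 0.0349) was called only in the 4 of 12 fits without MOCK_7d replicate 1, phosphorus deficiency_4d replicate 1, phosphorus deficiency_4d replicate 3 or phosphorus deficiency_7d replicate 2 (log2 2.25 to 2.91).

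Thiamine phosphate phosphatase-like protein (Sobic.003G209600) was called at day 7 only, at 8.07, 7.32 and 7.57 CPM in mock and 40.1, 29.9 and 31.95 CPM in labelled P deficiency. Its day 4 values were 10.5, 14.4 and 9.94 and 12.1, 15.3 and 13.3 CPM, which overlapped, and the interaction was 1.93 ± 0.24 (SE; adjusted p = 0.00363). Cycloartenol synthase (Sobic.004G037200), the entry enzyme of plant sterol synthesis, had an interaction of 1.40 ± 0.19 (SE; adjusted p = 0.00582) and was chosen after its values were seen. Its day 7 values were 66.6, 79.2 and 95.1 CPM in mock and 178, 152 and 185 CPM in labelled P deficiency.

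A set of 13 genes was lower in labelled P deficiency at both days, and less so at day 7. Plant cysteine oxidases, prolyl 4-hydroxylases and a 6-phosphogluconolactonase were among them, and several were near 0 in the early libraries labelled P deficiency. Plant cysteine oxidase 1 (Sobic.001G149800), which uses oxygen to mark ethylene response factors for breakdown, read 27.6, 15.9 and 19.2 CPM in mock and 1.12, 0.955 and 1.68 CPM in labelled P deficiency at day 4. Day 7 libraries read 39.1, 59.8 and 76.1 CPM in mock and 21.9, 29.2 and 30.9 CPM in labelled P deficiency. The groups did not overlap at either day, and the interaction was 2.96 ± 0.40 (SE; adjusted p = 0.00582).

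Plant cysteine oxidase 2 (Sobic.003G037600), its relative, had day 4 values of 28.8, 15.5 and 16.7 CPM in mock and 1.698, 1.73 and 2.35 CPM in labelled P deficiency. Its day 7 values were 46.5, 57.5 and 66.8 and 19.6, 27.6 and 22.99 CPM, and its interaction was 2.12 ± 0.34 (SE; adjusted p = 0.0155). Probable 6-phosphogluconolactonase 1 (Sobic.001G336500), of the pentose phosphate pathway, had an interaction of 1.78 ± 0.24 (SE; adjusted p = 0.00582) and rose from 1.89, 2.09 and 2.22 to 11.3, 15.5 and 10.4 CPM under labelled P deficiency. Synaptotagmin-3 (Sobic.010G236100) rose there from 11.9, 8.82 and 10.97 to 43.3, 43.2 and 38.9 CPM, with an interaction of 1.40 ± 0.20 (SE; adjusted p = 0.00738). The 2 genes named probable prolyl 4-hydroxylase 7, an enzyme that modifies cell wall proteins, had interactions of 1.78 ± 0.26 (SE; adjusted p = 0.00707) for Sobic.001G050900 and 2.57 ± 0.49 (SE; adjusted p = 0.0432) for Sobic.002G068600. The second was called only in the 4 of 12 fits without MOCK_4d replicate 3, MOCK_7d replicate 1, MOCK_7d replicate 3 or phosphorus deficiency_4d replicate 3 (log2 2.23 to 3.14). Of the genes of this paragraph, plant cysteine oxidase 2, synaptotagmin-3 and Sobic.001G050900 were chosen after their values were seen.

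For 2 of the 13 the size depended on near-absent reads. Zinc finger CCCH domain-containing protein 37 (Sobic.009G205100) stood at 0.1096, 0.796 and 0.255 CPM in the early libraries labelled P deficiency and 17.7, 13.2 and 14.4 CPM in day 4 mock. Its interaction was 3.77 ± 0.51 (SE; adjusted p = 0.00582), and 4.93 without phosphorus deficiency_4d replicate 2. Sobic.002G368500, a gene with no description and chosen after its values were seen, had 0, 0 and 2 reads in the early libraries labelled P deficiency. Its fitted interaction of 9.41, and 12 without phosphorus deficiency_4d replicate 3, is therefore no measured size. At day 7 it read 167, 140.2 and 171 CPM in mock and 36.9, 83.7 and 64.5 CPM in labelled P deficiency.

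No low-oxygen gene on the list passed the interaction by edgeR, and a list of this size would rarely hold a call. Of 12 tested genes of hypoxia and fermentation edgeR called none (0.465% of all genes were called), 3 had an unadjusted p under 0.05 (25%, against 8.32%), DESeq2 called 1 and limma voom 0, and the median was 0.12. In labelled P deficiency 8 were lower at day 4 and 9 at day 7 (18.4% and 18.2% of all genes tested were lower, and 20.3% and 17.4% higher). Alcohol dehydrogenase 1 (Sobic.005G103500), of ethanol fermentation and chosen after its values were seen, read 102, 97.99 and 87.3 CPM in mock and 13.04, 14.3 and 19.1 CPM in labelled P deficiency at day 4. By day 7 it read 203, 247 and 238 and 27.9, 41.8 and 43.2 CPM, a rise past the threshold in both arms, and its interaction was 0.02 ± 0.25 (SE; adjusted p = 0.999). Others, also chosen after their values were seen, were higher in labelled P deficiency. Non-symbiotic hemoglobin 1 (Sobic.009G199601) was so at both days, with log2 0.48 ± 0.12 SE and 1.19 ± 0.12 SE. Its interaction of 0.71 ± 0.17 (SE; adjusted p = 0.118) was the largest of the list. Pyruvate decarboxylase 2 (Sobic.003G061300) was higher at day 7 (log2 1.29 ± 0.39 SE, edgeR adjusted p = 0.0192). The summed CPM of the 12 genes was 1562 to 1681 in day 4 mock and 2343 to 2626 in day 7 mock. Under labelled P deficiency it was 713 to 779 and then 995 to 1192, higher at day 7 without overlap in both arms, and its part in the results for the 13 genes was not tested. RAP2-12 (Sobic.001G481300), an ethylene response factor that cysteine oxidases act on in Arabidopsis, had an interaction of -2.06 ± 0.29 (SE; adjusted p = 0.00678). It read 6.08, 8.002 and 7.17 CPM against 1.63, 1.44 and 1.72 CPM in mock at day 4, and 3.54, 4.17 and 5.48 against 3.72, 4.46 and 4.25 CPM at day 7, where the groups overlapped.

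**Figure D4:**
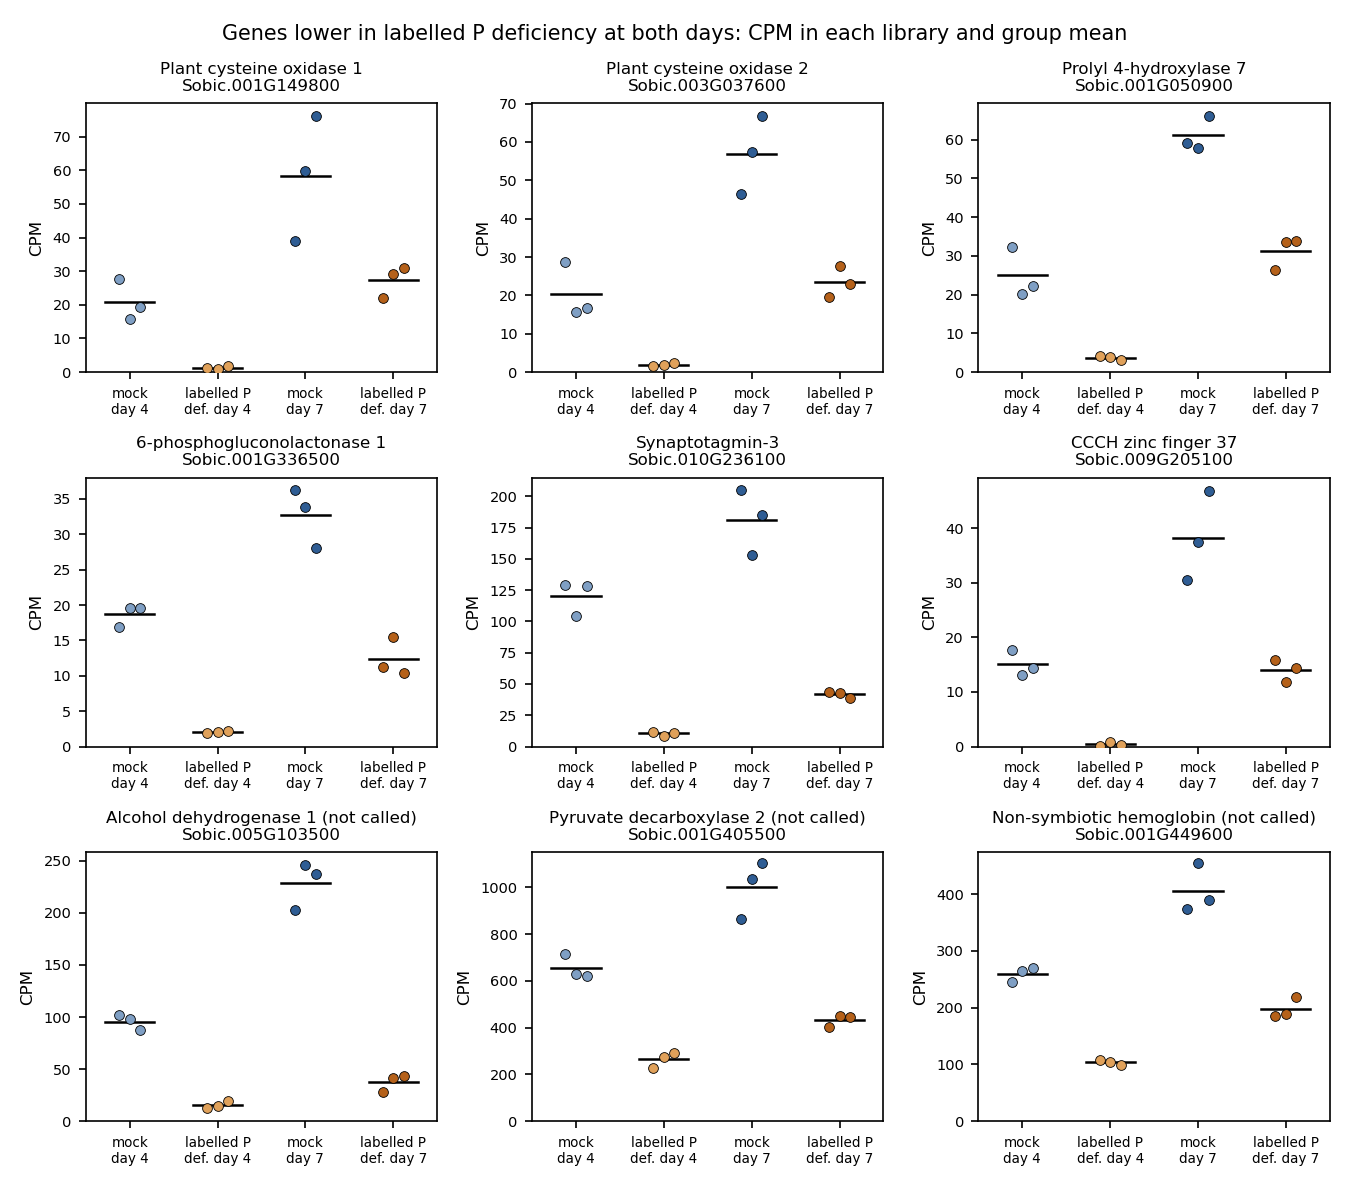
CPM (y axis, linear from 0, one scale per gene) in each library by group (x axis) for 6 of the 13 genes with a smaller fall at day 7 and for 3 low-oxygen genes that were not called; points are libraries and lines are group means of 3. Except in synaptotagmin-3, the early libraries labelled P deficiency lie near 0 in the upper 6 panels. In the lower 3 both arms are higher at day 7. Those 3 are lower in labelled P deficiency, while some other low-oxygen genes of the list are higher.

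PRR1, JMJ30, an F-box gene and cold-regulated protein 27 had negative interactions, and only PRR1 is in the clock list. PRR1 (Sobic.004G216700), the evening pseudo-response regulator, read 75.01, 85.2 and 86.2 CPM in mock and 213, 163 and 174 CPM in labelled P deficiency at day 4. On day 7 it read 54.6, 49.6 and 50.8 and 52.5, 55.4 and 58.7 CPM, which overlapped. Its interaction was -1.06 ± 0.16 (SE; adjusted p = 0.0122). It was the only edgeR call among 19 clock genes (5.26%, against 0.465% of all genes), with a list median of -0.10.

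Lysine-specific demethylase JMJ30 (Sobic.007G210801), an evening gene in Arabidopsis, read 30.8, 37.6 and 36.1 CPM in mock and 95.4, 77.4 and 78.3 CPM in labelled P deficiency at day 4. Day 7 libraries read 27.1, 23.8 and 17.8 and 16.6, 18.4 and 18.6 CPM, and the interaction was -1.62 ± 0.22 (SE; adjusted p = 0.00582). F-box protein At2g16365 (Sobic.009G223500), whose Arabidopsis namesake acts with phytochrome and the clock, changed sign. It read 69.4, 65.2 and 69.7 CPM in mock and 135, 102 and 99.3 CPM in labelled P deficiency at day 4, and 49.3, 44.98 and 46.5 and 25.3, 25.1 and 26 CPM at day 7. Both differences were without overlap and in opposite directions, and the interaction was -1.60 ± 0.17 (SE; adjusted p = 0.00144). Cold-regulated protein 27 (Sobic.001G480400), a clock-linked repressor in Arabidopsis that was chosen after its values were seen, had an interaction of -1.83 ± 0.23 (SE; adjusted p = 0.00396).

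Of the 19 clock genes, 4 were higher and 1 lower at day 7 in mock, and 5 were higher and 2 lower under labelled P deficiency (1.34% and 4.39% of all genes differed). LHY (Sobic.007G047400), the morning MYB factor of the clock, read 8.98, 6.86 and 7.13 CPM in mock and 22.8, 16.4 and 19.9 CPM in labelled P deficiency at day 4. At day 7 it read 182, 118 and 95.6 CPM and 251, 254 and 235 CPM. The rise passed in mock (log2 4.10 ± 0.23 SE, edgeR adjusted p = 4.88e-06) and in labelled P deficiency (log2 3.65 ± 0.22 SE, edgeR adjusted p = 2.31e-06), while the interaction was -0.46 ± 0.29 (SE; adjusted p = 0.774). REVEILLE 2 (Sobic.010G275700), a relative of LHY, rose likewise from 3.802, 4.01 and 4.58 to 25.2, 19.6 and 15.6 CPM in mock. By contrast, REVEILLE 1 (Sobic.006G192100) was not called over time in mock (log2 0.41 ± 0.27 SE, edgeR adjusted p = 0.648) and fell under labelled P deficiency (log2 -1.09 ± 0.27 SE, edgeR adjusted p = 0.0381). The part of LHY and REVEILLE 2 levels in the interaction results was not tested. LHY and both REVEILLE genes were chosen after their values were seen.

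**Figure D5:**
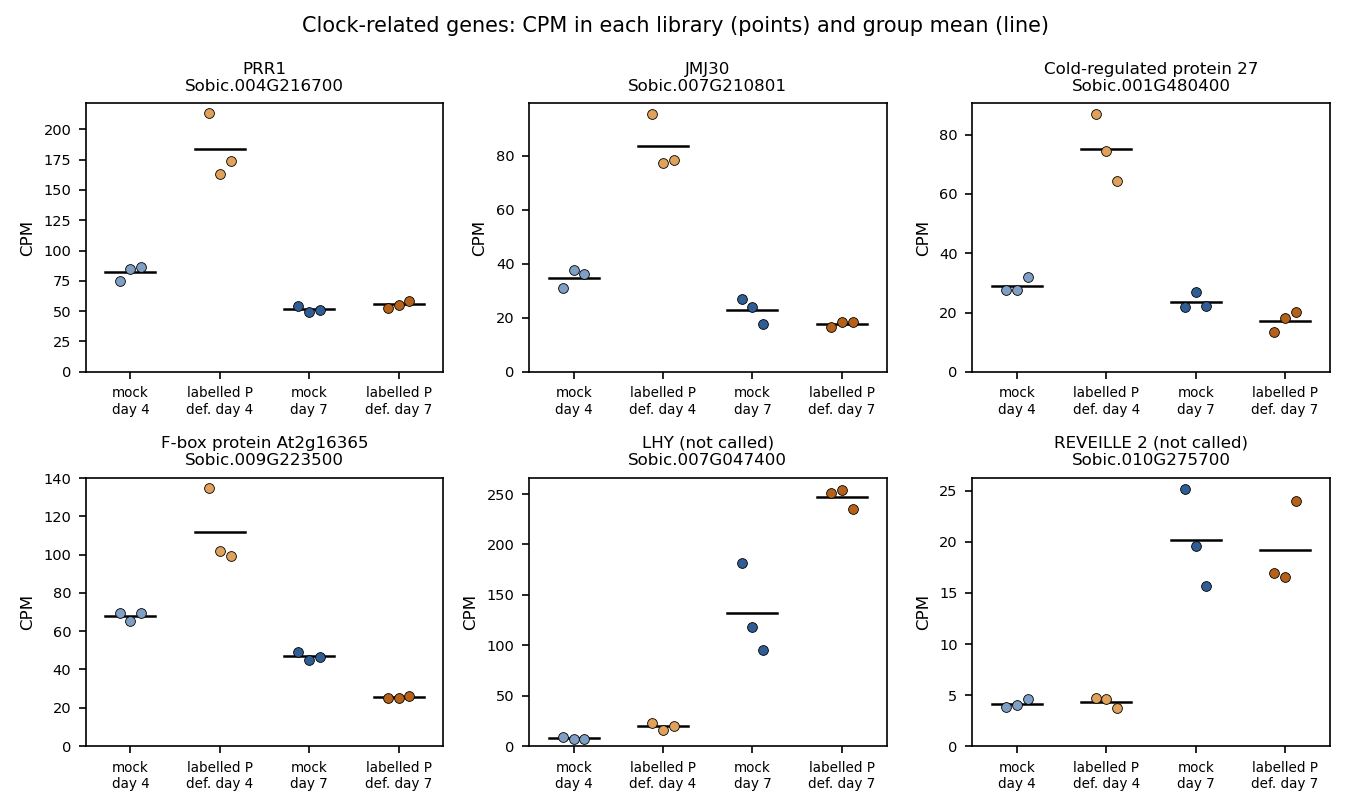
CPM (y axis, linear from 0, one scale per gene) of 6 clock-related genes in each library by group (x axis); points are libraries and lines are group means of 3. PRR1, JMJ30, cold-regulated protein 27 and the F-box gene peak in the early libraries labelled P deficiency, while LHY and REVEILLE 2 are high at day 7 in both arms.

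Other genes with a higher level in labelled P deficiency responded less at day 7. Patatin-like protein 3 (Sobic.003G389400), of a family of lipid acyl hydrolases, read 27.1, 20.6 and 20.95 CPM at day 4 and 10.3, 8.85 and 8.34 CPM at day 7 under labelled P deficiency, with an interaction of -3.199 ± 0.44 (SE; adjusted p = 0.00582). In mock it read 1.01, 0.569 and 0.443 and then 1.76, 3.71 and 1.88 CPM. Protein SAR DEFICIENT 1 (Sobic.007G107600), an immune transcription factor in Arabidopsis, had an interaction of -2.46 ± 0.39 (SE; adjusted p = 0.0133) and fell from 17.1, 11.3 and 9.65 to 1.23, 2.02 and 1.28 CPM under labelled P deficiency. Calmodulin calcium-dependent NAD kinase (Sobic.001G162200), which makes NADP, had an interaction of -0.92 ± 0.13 (SE; adjusted p = 0.00608). It was the only edgeR call among 125 genes of calcium sensing (0.8%, against 0.465% of all genes).

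The next 3 genes were each called in at most 6 of 12 fits. Glycerate dehydrogenase (Sobic.004G001300), an enzyme of photorespiration, read 0, 0.0898 and 0 CPM in day 4 mock and 46.4, 36.1 and 19.8 CPM in labelled P deficiency. By day 7 it read 0.44, 0.268 and 0.215 and 5.58, 7.79 and 10.1 CPM. Day 4 mock held 1 library above 0, so the fitted interaction of -5.41 ± 0.93 (SE; adjusted p = 0.0242) is no measured size, and it was called in 6 of 12 fits. The call was lost without MOCK_4d replicate 1 or 3, MOCK_7d replicate 1 or 2, phosphorus deficiency_4d replicate 2 or phosphorus deficiency_7d replicate 2, and the value was -8.67 without MOCK_4d replicate 2 and -4.78 without MOCK_4d replicate 3. Bowman-Birk type trypsin inhibitor (Sobic.005G215766), a defence protein, read 4.48, 3.74 and 7.71 CPM in mock and 0.356, 0.2501 and 0.408 CPM in labelled P deficiency at day 4 and at most 2.20 CPM at day 7. With levels this near 0, the fitted interaction of 5.08 ± 0.89 (SE; adjusted p = 0.0256) is an uncertain size. The interaction was called only in the 4 of 12 fits without MOCK_4d replicate 2, MOCK_7d replicate 1, phosphorus deficiency_4d replicate 3 or phosphorus deficiency_7d replicate 1 (log2 4.43 to 5.62). Light-regulated protein (Sobic.003G107300) read 642, 537 and 420.4 CPM at day 4 and 389, 429 and 556 CPM at day 7 under labelled P deficiency and 8.95, 11.9 and 7.37 and 53.8, 33.7 and 22.2 CPM in mock. Its interaction of -2.18 ± 0.40 (SE; adjusted p = 0.035) was called only in the 3 of 12 fits without MOCK_7d replicate 1, MOCK_7d replicate 3 or phosphorus deficiency_4d replicate 3 (log2 -2.44 to -1.76).

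Genes lower in labelled P deficiency, and more so at day 7, made up the largest negative class, with 19 genes. Peroxisomal (S)-2-hydroxy-acid oxidase GLO5 (Sobic.002G036000), a glycolate oxidase, read 9.26, 9.43 and 12.7 CPM in mock and 2.301, 1.55 and 1.86 CPM in labelled P deficiency at day 4. On day 7 it read 20.97, 10.3 and 9.297 and 0.247, 0.191 and 0.298 CPM. The groups did not overlap at either day, and the interaction was -3.31 ± 0.49 (SE; adjusted p = 0.00917). 3-ketoacyl-CoA synthase 11 (Sobic.009G241000), which elongates fatty acids, rose in mock and fell under labelled P deficiency. It read 32.05, 27.3 and 31.5 and then 48.6, 53.9 and 48.9 CPM in mock, and 14.3, 20.1 and 18.1 and then 8.51, 9.01 and 9.29 CPM under labelled P deficiency, with an interaction of -1.71 ± 0.19 (SE; adjusted p = 0.00187).

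Cytochrome P450 76C2 (Sobic.005G206601) had an interaction of -1.42 ± 0.20 (SE; adjusted p = 0.00608). It was the only edgeR call among 155 cytochromes P450 (0.645%, near the 0.465% of all genes). Polyol transporter 5 (Sobic.001G469600), a sugar alcohol importer, had an interaction of -1.38 ± 0.21 (SE; adjusted p = 0.0118) and fell from 18.4, 21.3 and 24.8 to 6.23, 6.998 and 7.36 CPM under labelled P deficiency. In mock it read 86.4, 126 and 116 and then 96.6, 87.4 and 88.8 CPM, which overlapped. Of 111 genes of sugar transport and sucrose cleavage, edgeR called 2 (1.80%, against 0.465% of all genes), both negative.

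Genes that changed sign between the days numbered 16. Ipomoelin (Sobic.005G182500), a wound-induced lectin in sweet potato, read 35.05, 35.1 and 39.2 CPM in mock and 16.7, 10.2 and 13.1 CPM in labelled P deficiency at day 4. Day 7 libraries read 32.9, 28.5 and 23.98 and 65.3, 58.1 and 59.1 CPM. It was thus lower in labelled P deficiency first and higher later, without overlap at either day, and the interaction was 2.55 ± 0.24 (SE; adjusted p = 0.000519). STAR2 (Sobic.009G023700), part of an ABC transporter for aluminium tolerance in rice, behaved likewise, with an interaction of 2.05 ± 0.25 (SE; adjusted p = 0.00363). It was chosen after its values were seen. 7-deoxyloganetin glucosyltransferase (Sobic.006G101200), a glycosyltransferase by name, went the other way, with 78.1, 93.5 and 79.99 CPM against 30.8, 37.7 and 32.6 CPM in mock at day 4 and 29.2, 23.8 and 29.5 against 64.9, 33.5 and 39.4 CPM at day 7. Its interaction was -2.06 ± 0.29 (SE; adjusted p = 0.00638).

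Among defence genes, Glucan endo-1,3-beta-glucosidase 13 (Sobic.002G327900), which cuts callose and fungal walls, had an interaction of 1.93 ± 0.32 (SE; adjusted p = 0.017). It read 14.1, 9.87 and 14.7 CPM in mock and 85.8, 117 and 74.3 CPM in labelled P deficiency at day 7. Acidic endochitinase (Sobic.003G244600), which cuts chitin, had one of 2.13 ± 0.37 (SE; adjusted p = 0.0247), called only in the 7 of 12 fits without MOCK_4d replicate 1, MOCK_4d replicate 3, MOCK_7d replicate 1, phosphorus deficiency_4d replicate 1, phosphorus deficiency_4d replicate 3, phosphorus deficiency_7d replicate 1 or phosphorus deficiency_7d replicate 3 (log2 1.94 to 2.54). Of 514 defence genes tested, 4 were called (0.778%, near the 0.465% of all genes; list median -0.00). Putative cis-zeatin O-glucosyltransferase (Sobic.006G174400), which stores cytokinin in a bound form, had an interaction of 1.93 ± 0.31 (SE; adjusted p = 0.0155), lost without phosphorus deficiency_7d replicate 1 (log2 1.80 to 2.15). PRR1 is in the cytokinin list because its description names a response regulator. With PRR1, the glucosyltransferase made the 2 edgeR calls among 52 cytokinin genes (3.85%, against 0.465% of all genes).

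A further 10 genes were each called in at most 4 of 12 fits. On the positive side, galactinol synthase 2 (Sobic.002G423600), which starts raffinose synthesis, had an interaction of 2.46 ± 0.45 (SE; adjusted p = 0.0349) and was called only in the 2 of 12 fits without MOCK_4d replicate 3 or MOCK_7d replicate 2 (log2 2.08 to 2.85). Single myb histone 6 (Sobic.001G156900), by name a telomere-binding factor, had one of 0.85 ± 0.15 (SE; adjusted p = 0.0323) and was called only in the 4 of 12 fits without MOCK_7d replicate 1, phosphorus deficiency_4d replicate 1, phosphorus deficiency_4d replicate 3 or phosphorus deficiency_7d replicate 3 (log2 0.76 to 0.94). On the negative side, cytosolic sulfotransferase 5 (Sobic.002G369400) had an interaction of -2.43 ± 0.44 (SE; adjusted p = 0.0303) and was called only in the 3 of 12 fits without MOCK_7d replicate 1, phosphorus deficiency_4d replicate 2 or phosphorus deficiency_7d replicate 2 (log2 -2.64 to -2.14). Probable cinnamyl alcohol dehydrogenase 6 (Sobic.006G014700), of the monolignol route to lignin, read 15.1, 17.8 and 10.3 CPM at day 4 and 3.24, 4.93 and 3.84 CPM at day 7 under labelled P deficiency. Its interaction of -1.73 ± 0.30 (SE; adjusted p = 0.0247) was called only in the 4 of 12 fits without MOCK_7d replicate 1, MOCK_7d replicate 2, phosphorus deficiency_4d replicate 3 or phosphorus deficiency_7d replicate 2 (log2 -1.91 to -1.51). Hydroxycinnamoyltransferase 2 (Sobic.006G209000) had one of -1.73 ± 0.32 (SE; adjusted p = 0.035), called only in the 4 of 12 fits without MOCK_4d replicate 1, MOCK_7d replicate 1, phosphorus deficiency_4d replicate 1 or phosphorus deficiency_7d replicate 1 (log2 -1.98 to -1.57).

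Cytosolic invertase 1 (Sobic.005G058800), which splits sucrose, was higher in labelled P deficiency at day 4, at 157, 139.6 and 133 CPM against 74.3, 66.3 and 72.3 CPM in mock. At day 7 it read 60.8, 57.5 and 56.8 against 47.1, 49.3 and 53.9 CPM, and its interaction of -0.79 ± 0.14 (SE; adjusted p = 0.0322) was called only in the 2 of 12 fits without MOCK_7d replicate 1 or phosphorus deficiency_4d replicate 3 (log2 -0.83 to -0.67). Transcription factor MYB52 (Sobic.005G104800) had an interaction of -0.96 ± 0.18 (SE; adjusted p = 0.0349), called only in the 1 of 12 fits without MOCK_7d replicate 3 (log2 -1.03 to -0.86). Ethylene-responsive transcription factor ERF113 (Sobic.007G188701) had one of -1.84 ± 0.35 (SE; adjusted p = 0.0445), called only in the 2 of 12 fits without MOCK_7d replicate 3 or phosphorus deficiency_4d replicate 3 (log2 -2.09 to -1.47). Expansin-like A2 (Sobic.001G311000), of a family that loosens cell walls, had one of -1.42 ± 0.28 (SE; adjusted p = 0.0474), called only in the 2 of 12 fits without MOCK_7d replicate 3 or phosphorus deficiency_4d replicate 3 (log2 -1.60 to -1.26). A UPF0481 protein (Sobic.007G110300) had one of -1.93 ± 0.35 (SE; adjusted p = 0.0322), called only in the 3 of 12 fits without MOCK_7d replicate 1, phosphorus deficiency_4d replicate 2 or phosphorus deficiency_7d replicate 1 (log2 -2.19 to -1.66).

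Among the 22 genes that differed between days in mock alone, Elongation factor 2 (Sobic.003G280500), a translation factor, rose in mock from 2.27, 3.71 and 3.41 to 11.9, 10.4 and 12.4 CPM. Under labelled P deficiency it read 2.79, 3.57 and 2.04 and then 2.03, 2.61 and 2.14 CPM, which overlapped. Its interaction was -2.19 ± 0.34 (SE; adjusted p = 0.0129), lost without phosphorus deficiency_4d replicate 2 (log2 -2.34 to -1.92). Senescence associated gene 20 (Sobic.001G401900) fell in mock from 87.1, 166 and 138 to 25.5, 16.8 and 7.97 CPM and read 73.9, 61.9 and 70.98 and then 67.3, 54.6 and 62.7 CPM under labelled P deficiency. Its interaction was 2.79 ± 0.45 (SE; adjusted p = 0.0159), lost without MOCK_7d replicate 2 or phosphorus deficiency_4d replicate 2 (log2 2.46 to 3.27). A gene of the same name (Sobic.001G401975) was also called (chosen after its values were seen), and reads may be split between the 2, so both values are uncertain.

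No gene of the phosphate lists was called by edgeR, and lists of this size would often hold no call. Of 118 genes in 5 lists (SPX proteins, phosphate transporters, purple acid phosphatases, membrane lipid enzymes and starvation regulators), edgeR called none, with a median interaction of 0.02 and a smallest adjusted p of 0.118. The share called over all genes tested was 0.465%. At an unadjusted p under 0.05 there were 18 (15.3%, against 8.32% of all genes), DESeq2 called 4 and limma voom 1. At day 4, 67 of the 118 were lower in labelled P deficiency (56.8%, against 18.4% of all genes) and 13 higher, and at day 7 65 (55.1%, against 18.2%) and 16. SPX domain-containing protein 3 had an interaction of 0.03 ± 0.27 (SE; adjusted p = 0.999). Inorganic phosphate transporter 1-2 (Sobic.001G502000), a phosphate importer, read 63.5, 69.9 and 49.2 CPM at day 4 and 215, 161 and 111 CPM at day 7 under labelled P deficiency, and 2002, 1430 and 2270 and 2494, 1049 and 1595 CPM in mock. Its interaction was 1.56 ± 0.43 (SE; adjusted p = 0.198), and it was chosen after its values were seen.

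Strigolactones are root signals made from carotenoids that plants release when phosphate is short. Of 20 genes of strigolactone synthesis and signalling, edgeR, DESeq2 and limma voom called 0, 1 had an unadjusted p under 0.05 (5%, against 8.32% of all genes), and the median interaction was -0.10. With 0.465% of all genes called, a list of this size would rarely hold a call. Carotenoid cleavage dioxygenase 8 homolog B (Sobic.003G293600), a core enzyme of the pathway, read 102, 115 and 108 CPM in mock and 0.876, 0.932 and 0.944 CPM in labelled P deficiency at day 4. By day 7 it read 112, 172 and 240.4 and 1.05, 1.42 and 1.28 CPM. Groups were far apart at both days, and the interaction was -0.24 ± 0.35 (SE; adjusted p = 0.942). Of the 20 genes, 5 were higher and 8 lower in labelled P deficiency at day 4, and 4 and 8 at day 7. Over all genes tested, 20.3% were higher and 18.4% lower at day 4, and 17.4% and 18.2% at day 7. The MAX2 homolog (Sobic.010G043000) was higher at both days (log2 1.60 ± 0.14 and 1.46 ± 0.14 SE). So was carotenoid cleavage dioxygenase 8 homolog A (Sobic.005G002500), at log2 1.73 ± 0.25 and 1.91 ± 0.24 SE and at most 2.70 CPM on average. The genes named here were chosen after their values were seen. Of the 46 gene lists examined, 17 had a called member, and 31 of the 117 called genes were in a list. Cytosolic ribosomal proteins (213 genes, median -0.21, against -0.05 over all genes) had 0 calls by edgeR and 2 each by DESeq2 and limma voom. Of the 213, 3 had an unadjusted p under 0.05 (1.41%, against 8.32% of all genes). Glutathione S-transferases (78 genes, median -0.19) had 0 calls by the 3 tools and 10 genes at an unadjusted p under 0.05 (12.8%, against 8.32%).

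Of the 117 called genes 16 had no description. The first 2 described here had a large late rise, and others of the 16 also had large positive interactions. Some had negative ones, such as Sobic.003G280200 at log2 -3.31. NewGene_1212, a gene predicted by the authors, read 12.5, 8.12 and 7.402 CPM at day 4 and 227, 168 and 143 CPM at day 7 under labelled P deficiency, and 5.305, 6.499 and 4.32 and then 11.9, 9.89 and 10.8 CPM in mock. Its interaction was 3.25 ± 0.32 (SE; adjusted p = 0.000754). Sobic.003G326400 read 2.82, 2.14 and 1.35 and then 72.9, 60.4 and 64.3 CPM under labelled P deficiency and 3.404, 2.396 and 0.573 and then 4.13, 3.35 and 6.31 CPM in mock. Its interaction was 3.85 ± 0.62 (SE; adjusted p = 0.0157), lost without MOCK_7d replicate 2 or phosphorus deficiency_4d replicate 2 (log2 3.33 to 4.35). The genes named in this paragraph were chosen after their values were seen.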

How the data were processed

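Sequencing reads were cleaned with fastp, aligned with HISAT2 and counted with featureCounts, per the submitters' processing notes. Counts were deposited by the authors as raw counts per gene, which were used here, with gene descriptions from the same table; the strand setting was not given in the sources used here, so antisense and overlapping genes cannot be told apart. From these, edgeR 4.0.16 in R 4.3.3 gave TMM factors, the low-count filter filterByExpr, a robust quasi-likelihood fit of 4 group means over the 12 libraries, and Benjamini-Hochberg adjusted p over 25137 genes. CPM uses TMM-scaled totals. Standard errors are the log2 value divided by the square root of F. Depth was 32631226 to 45292506 counts per library, and the median standard error of an interaction was 0.299.

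The alternatives were RLE factors, total counts only, other count filters, DESeq2 1.42.0, limma 3.58.1 voom with quality weights, a replicate block, a 2-fold minimum and leaving out each library. The members and gene lists were chosen with earlier results of these data known, and lists match words in descriptions; the words of 2 lists were corrected after the matched names were seen. Named genes were the 12 largest interactions of each sign at 5 CPM or more in a group, the 2 smallest p of each list and the 3 of each class. The strigolactone analogue libraries of the series were not used here, nor were the authors' normalized values and comparisons. No Sobic identifier matched the reference gene table.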

Additional observations from a re-analysis of the deposited data

Results flagged for a closer look

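The response differed between day 4 and day 7, by the test of the difference itself, for 67 genes with a positive and 50 with a negative interaction. The 16 genes below stood out because they were called at both days with opposite signs. Groups of 3 libraries were too small for a test of single outlying libraries.

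Genes lower in labelled P deficiency at day 4 and higher at day 7 had log2 interactions of 2.78 for Oligopeptide transporter 3 (Sobic.001G087700), 2.55 for Ipomoelin (Sobic.005G182500), 2.05 for UPF0014 membrane protein STAR2 (Sobic.009G023700), 1.91 for Bifunctional phosphatase IMPL2, chloroplastic (Sobic.003G119900) and 1.52 for Putative multidrug resistance protein (Sobic.004G073600). Others of this kind had log2 interactions of 2.84 for a gene with no description (Sobic.001G107800), 2.79 for Senescence associated gene 20 (Sobic.001G401900), 2.16 for Protein CDI (Sobic.001G042500), 1.05 for Uricase-2 (Sobic.003G366400) and 2.35 for Endo-1,4-beta-xylanase 1 (Sobic.001G140300). Genes higher in labelled P deficiency at day 4 and lower at day 7 had log2 interactions of -1.60 for F-box protein At2g16365 (Sobic.009G223500), -1.89 for Probable chlorophyll(ide) b reductase NYC1, chloroplastic (Sobic.003G010600), -1.83 for Cold-regulated protein 27 (Sobic.001G480400), -2.06 for 7-deoxyloganetin glucosyltransferase (Sobic.006G101200), -1.21 for a gene with no description (Sobic.004G064900) and -1.31 for a gene with no description (Sobic.001G426400). Without 1 library at a time, the call held in 10 of 12 fits for Senescence associated gene 20, 5 for Protein CDI, 4 each for Sobic.004G064900 and Sobic.001G426400, and 3 each for Uricase-2 and Endo-1,4-beta-xylanase 1, and in all 12 for the other 10 genes.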

How the results depend on the processing

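Every one of the 117 called genes kept its sign under the 7 other settings and the 12 fits without 1 library, and 48 were called in all of them. The 67 positive and 50 negative genes became 220 and 210 with DESeq2, which called all 117, and 156 and 145 with limma voom. Same-numbered replicates seldom deviated together, with correlations of -0.288 to 0.463 over 18 pairs and 3 above 0.1. Other pairs ran from -0.329 to 0.337, and 2 of 12 libraries correlated best with their own number. Whether the numbers mark a pairing cannot be told from these values. With the replicate block 46 positive and 25 negative genes were called, 68 of them shared. Some genes called in all 12 fits without 1 library still lost the call under another setting. Glucan endo-1,3-beta-glucosidase 13 lost it with the block, Sobic.002G368500 with limma voom and plant cysteine oxidase 2 with both. Without 1 library there were 37 to 128 positive and 21 to 52 negative calls. With at least 2-fold change, calls were 4682 at day 4, 4492 at day 7, 210 over time in mock and 646 over time under labelled P deficiency. Calls over time in mock were 895 with DESeq2, 1200 with limma voom and 66 to 743 without 1 library. Under labelled P deficiency they were 1869, 1917 and 596 to 1452. Treatment calls without 1 library were 7174 to 10394 at day 4 and 7175 to 10152 at day 7. Over the called genes, 641 of the gene and setting pairs lost the call and 1582 kept it. The cause was not tested. Depth limits genes near 0 in a group, whose fitted sizes are no measured folds.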
